A study of Mus musculus with 32 samples.

Results

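Tetraspanins are small proteins whose chain crosses the membrane repeatedly and which gather integrins, receptors and proteases into patches of the cell surface, of endosomes and of secreted vesicles. The 9 genes followed here were *Cd9*, *Cd63*, *Cd81*, *Cd82*, *Cd37*, *Cd53*, *Cd151*, *Tspan3* and *Tspan14*, chosen by name from the 18588 genes of the deposited table. Microglia had been isolated with CD11b magnetic beads from the forebrains of female rTg4510 and wild type (WT) mice at 2, 4, 6 and 8 months of age, and RNA was sequenced. rTg4510 mice carry human tau with the P301L mutation under a tetracycline-responsive element, together with a second transgene in which the CaMKIIα promoter drives the transactivator, so that tau is made in forebrain neurons after birth. The WT animals were littermates without either transgene, so that the transactivator and tau differ together between the genotypes, and each library came from the pooled forebrains of several animals. Of 32 libraries, 28 were analyzed, with n = 4 per genotype at 2 and 6 months and n = 3 at 4 and 8 months. The study had excluded the other 4, replicate 3 of both genotypes at 4 months and replicate 4 of both genotypes at 8 months, after quality control.

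CD9 and CD81 are close relatives that bind the immunoglobulin-domain proteins encoded by *Ptgfrn* and *Igsf8* and are known on microglia, oligodendrocytes and many other cells. CD63 is a tetraspanin of late endosomes and lysosomes, and CD9, CD63 and CD81 are the usual marker proteins of exosomes. CD37 and CD53 are largely restricted to leukocytes, CD82 and CD151 act on cell adhesion, CD151 through laminin-binding integrins, and TSPAN14 belongs to the group that controls the exit and activity of the protease ADAM10. Values below are log2 signals per gene, and a difference of 1 is a doubling. They are not scaled to gene length, so the level of one gene is compared between libraries and not with that of another gene. A gene was called changed at a false discovery rate (FDR) under 0.05 over all 18588 genes together with a change above 1.5 fold.

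The CD11b preparations carried the microglia markers *Cx3cr1*, *P2ry12*, *Tmem119*, *Csf1r*, *Aif1*, *Itgam* and *Sall1*, whose mean log2 signal lay between 9.93 and 10.79 in every library. The mean over 5 astrocyte markers lay between 4.55 and 6.98, and the mean over 6 oligodendrocyte markers between 4.04 and 7.53, and these ranges are given per list since they rest on different genes. Over all genes 1.58%, 9.47%, 11.3% and 10.5% were called higher in rTg4510 at 2, 4, 6 and 8 months. Called lower were 0.403%, 4.33%, 8.54% and 5.37%, and the short lists below are to be read beside these shares. Of these 7 microglia markers none was called higher in rTg4510 at any age, and 0, 2, 3 and 2 were called lower at 2, 4, 6 and 8 months. Of 7 neutrophil markers, 6 were called lower at 6 months and 4 at 8 months. Of the 5 astrocyte markers 1, *Gfap*, was called higher at 6 and 8 months, while 1 was called lower at 6 months and 2 at 8 months, *Aqp4* (-1.22 and -1.38) and at 8 months *Slc1a2* (-2.14). Of 7 endothelial and mural markers 1, *Flt1*, was called higher at 4, 6 and 8 months, and 1, 2 and 2 were called lower, with *Pecam1* at -1.35, -2.12 and -2.04. Of 7 border macrophage and monocyte markers 1 was called lower at 4 months and 2 at 6 months, of 4 lymphocyte markers 2 at 4 months, and of the 2 neuron markers measured 1 at 6 months, with none of these lists called higher at any age. No oligodendrocyte marker was called in either direction. The part of these marker differences in those of the tetraspanins was not tested. The 10 genes with the highest signals held between 39% and 46.4% of the summed linear signal of a WT library, and between 30.3% and 40.1% of an rTg4510 library. In bulk RNA, more cells of one kind and more RNA per cell cannot be told apart.

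The sequence before a RefSeq start of *Cd9* and *Cd63*, the members that changed most, is shown beside that of *Cd81*, which changed less, and of *Cd37*, which did not pass the test. Each line holds the 250 bases before the RefSeq start used (GRCm38.p6), 5′ to 3′ on the strand of the gene. *Cd9* lies on chromosome 6 (chr6:125494761-125495010, minus strand), *Cd63* on chromosome 10 (chr10:128909095-128909344, plus strand), *Cd81* on chromosome 7 (chr7:143052500-143052749, plus strand) and *Cd37* also on chromosome 7 (chr7:45238840-45239089, minus strand). The windows of *Cd9* and *Cd81* directly precede the annotated gene. Those of *Cd63* and *Cd37* lie inside it (chr10:128896231-128912822 and chr7:45233632-45239340), before an internal start, and the sequence before the outer end of these 2 genes was not searched. Capitals mark matches, on either strand, to GAGGAAGT, a sequence bound by the myeloid factor PU.1, or to the E-box CACGTG. The other letters searched were TGANTCA, the AP-1 element, and TATAAA, the TATA box.
Cd9: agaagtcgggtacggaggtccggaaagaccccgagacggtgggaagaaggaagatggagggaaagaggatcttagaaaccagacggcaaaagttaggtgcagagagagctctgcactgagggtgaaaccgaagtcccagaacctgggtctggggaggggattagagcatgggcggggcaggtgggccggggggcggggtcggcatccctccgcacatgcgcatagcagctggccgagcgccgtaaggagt
Cd63: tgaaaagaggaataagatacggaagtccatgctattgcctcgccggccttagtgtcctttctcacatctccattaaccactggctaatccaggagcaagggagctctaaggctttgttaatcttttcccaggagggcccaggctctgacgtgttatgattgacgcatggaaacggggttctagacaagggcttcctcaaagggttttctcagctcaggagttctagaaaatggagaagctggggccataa
Cd81: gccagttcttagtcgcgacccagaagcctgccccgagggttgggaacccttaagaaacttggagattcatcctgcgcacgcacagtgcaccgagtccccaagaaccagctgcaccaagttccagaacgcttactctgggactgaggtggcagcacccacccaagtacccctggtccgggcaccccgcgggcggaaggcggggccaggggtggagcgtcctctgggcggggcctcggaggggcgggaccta
Cd37: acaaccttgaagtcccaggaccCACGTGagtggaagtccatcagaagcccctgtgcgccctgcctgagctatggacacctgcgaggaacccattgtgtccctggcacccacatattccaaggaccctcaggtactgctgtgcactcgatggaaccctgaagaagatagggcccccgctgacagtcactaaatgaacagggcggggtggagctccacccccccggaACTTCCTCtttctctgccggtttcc
The window of *Cd37* held both GAGGAAGT, 25 bases before the start used, and CACGTG, 228 bases before it. The windows of *Cd9*, *Cd63* and *Cd81* held none of the 4 motifs. Over the 14 RefSeq promoters of the 9 genes, 2 held GAGGAAGT, 1 held CACGTG, and TGANTCA and TATAAA were in none. Of all 32851 mouse promoters of the same length, 2.44% held GAGGAAGT, 6.02% CACGTG, 6.75% TGANTCA and 12.4% TATAAA. The matches to GAGGAAGT belonged to *Cd37* and to 1 of the 4 promoters of *Cd82*, neither of which passed the test for a genotype difference. Any relation between these motifs and the genotype differences was not tested.

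*Cd9* and *Cd63* were up-regulated in rTg4510 microglia at every age, and the 6 members other than these and *Cd81* stayed within narrow limits. *Cd81* was higher by less than 1.5 fold in the signals as deposited, but its direction turned under quantile normalization at 4, 6 and 8 months. Of the 9 members 2 were called up and 0 down at each of 2, 4, 6 and 8 months. Over all genes, 1.98%, 13.8%, 19.8% and 15.9% were called at these ages, and 1.58%, 9.47%, 11.3% and 10.5% were called up. The median log2 difference of the 9 members was -0.06, 0.1, 0.05 and 0.03, against 0.014, -0.037, -0.035 and -0.014 over all genes.

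**Figure D1:**
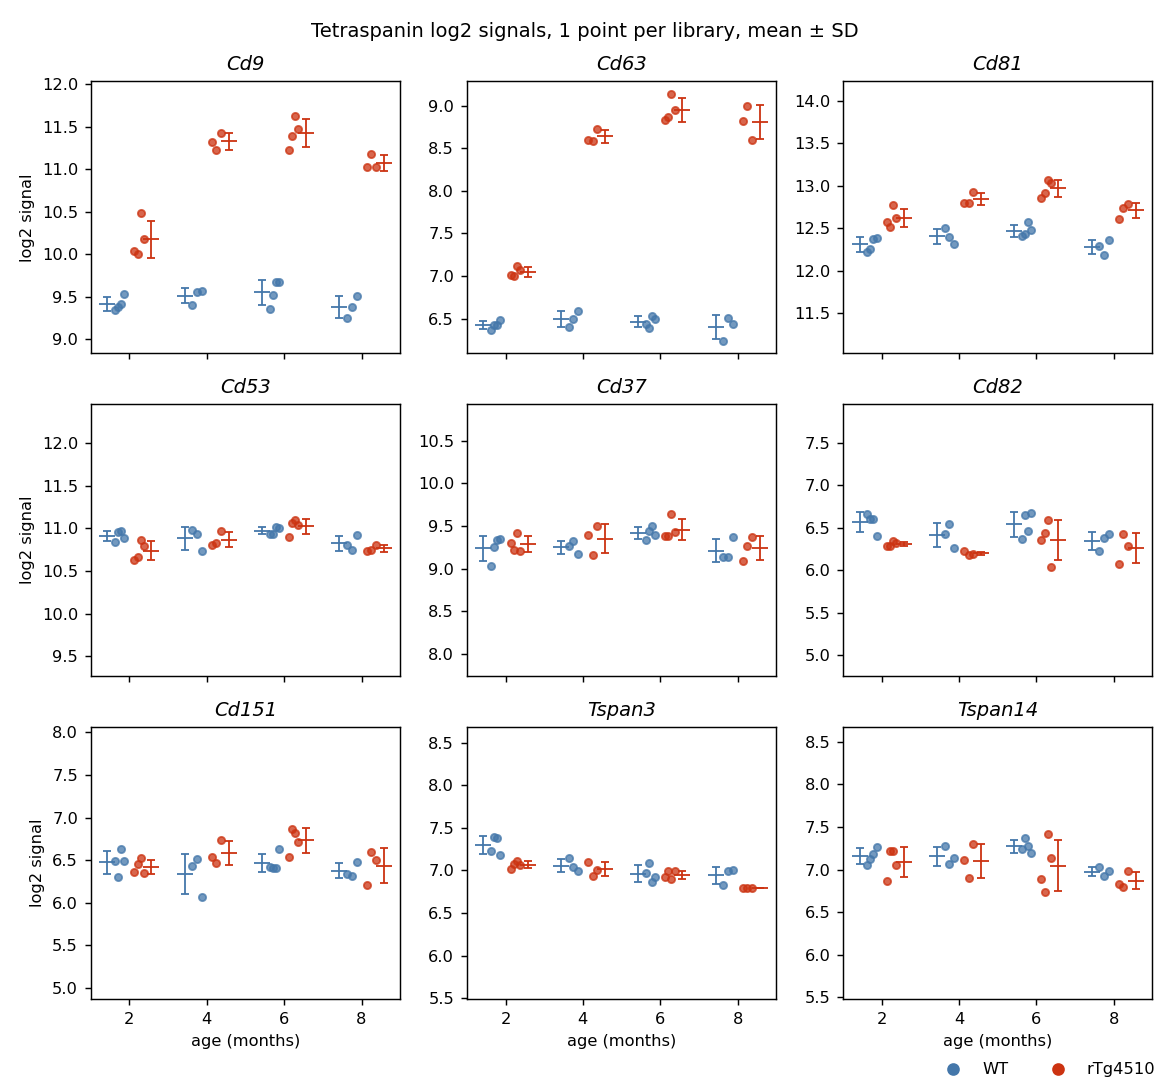
Log2 signal of the 9 tetraspanins (y axis, every panel spans the same range) against age in months (x axis), with 1 point per library, WT in blue and rTg4510 in red, and the mean ± SD beside each group (n = 4, 3, 4 and 3). All rTg4510 libraries lie above all WT libraries of the same age for *Cd9*, *Cd63* and *Cd81*, with the step of *Cd9* and *Cd63* between 2 and 4 months. The genotypes did not overlap for 11%, 36.6%, 32.8% and 36.7% of all genes at the 4 ages.

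*Cd63* is the lysosomal member and had the largest changes from 4 months on. At 2 months the WT libraries read 6.37, 6.42, 6.43 and 6.48, and the rTg4510 libraries 7.01, 7, 7.12 and 7.07. At 4 months the WT libraries read 6.40, 6.49 and 6.59, and the rTg4510 libraries 8.60, 8.59 and 8.73. At 6 months they read 6.44, 6.39, 6.53 and 6.50 in WT and 8.83, 8.87, 9.14 and 8.95 in rTg4510, and at 8 months 6.24, 6.51 and 6.44 in WT and 8.82, 9 and 8.60 in rTg4510. No library of either genotype reached the range of the other at any age, as for 11%, 36.6%, 32.8% and 36.7% of all genes at the 4 ages. The differences were 0.63 ± 0.0765 (SE), 2.15 ± 0.0883, 2.48 ± 0.0765 and 2.41 ± 0.0883 on the log2 scale, which is 1.55, 4.42, 5.6 and 5.31 fold. The limma FDR of *Cd63* was 3.81e-05, 3.69e-13, 3.28e-15 and 1.01e-13 at the 4 ages. By p-value *Cd63* ranked 38, 12, 5 and 5 of 18588 genes. The call at 2 months lay just past 1.5 fold, and it was lost when libraries were scaled to their linear sum, with a difference of 0.58.

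*Cd9*, on chromosome 6 from 125460266 to 125494760, had smaller changes than *Cd63* from 4 months on and a larger one at 2 months, 0.76 against 0.63. The WT libraries read 9.34, 9.38, 9.42 and 9.53 at 2 months and the rTg4510 libraries 10.04, 10, 10.48 and 10.18. At 4 months they read 9.41, 9.56 and 9.57 in WT and 11.32, 11.23 and 11.43 in rTg4510. At 6 months they read 9.36, 9.52, 9.67 and 9.67 in WT and 11.22, 11.39, 11.62 and 11.47 in rTg4510, and at 8 months 9.25, 9.38 and 9.51 in WT and 11.02, 11.18 and 11.02 in rTg4510. The genotypes were again fully separated, as for 11%, 36.6%, 32.8% and 36.7% of all genes. The WT values of *Cd9* stayed between 9.25 and 9.67 over all ages. The differences were 0.76 ± 0.0997 (SE), 1.81 ± 0.115, 1.87 ± 0.0997 and 1.7 ± 0.115, or 1.69, 3.51, 3.66 and 3.24 fold, with an FDR of 8.06e-05, 3.15e-10, 9.61e-12 and 7.15e-10. In none of 28 fits that each left out 1 library was a call of *Cd9* or *Cd63* lost. Quantile normalization lowered the *Cd9* differences to 1.47, 1.51 and 1.37 at 4, 6 and 8 months, and they stayed called.

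CD9 is also a protein of oligodendrocytes, so its signal was set beside the myelin markers. At 8 months the oligodendrocyte means of the WT libraries were 7.53, 5.86 and 5.11. The same libraries read 9.25, 9.38 and 9.51 for *Cd9* and 6.24, 6.51 and 6.44 for *Cd63*. Among the rTg4510 libraries of 8 months the oligodendrocyte means were 6.65, 5.32 and 4.86, while *Cd9* read 11.02, 11.18 and 11.02. None of the 6 oligodendrocyte markers was called at any age, with the group means of the marker list lower in rTg4510 than in WT at each age. Values per library were set side by side at 8 months only, and the part of oligodendrocyte RNA in the *Cd9* signal was not tested.

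The table also holds processed copies of both genes, listed as *Cd63-ps* and *Cd9-ps*, and reads that match a gene and its copy could have been assigned to either. *Cd63-ps* was higher in rTg4510 by 0.71, 2.42, 2.6 and 2.44 at the 4 ages, and its signal correlated with that of *Cd63* at r = 0.998 over the 28 libraries. *Cd9-ps* was higher by 0.97, 1.92, 2 and 1.74, with r = 0.974 against *Cd9*. Over the 28 libraries *Cd63-ps* had a mean log2 signal of 11.56 and *Cd63* 7.38, while *Cd9-ps* had 7.11 and *Cd9* 10.22. How reads were divided between gene and copy was not tested, so the values listed as *Cd63* may hold only part of its reads. The levels and fold changes of both genes are uncertain to that extent, and both copies were called up at all 4 ages.

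*Cd81*, on chromosome 7 from 143052750 to 143067930, was higher in rTg4510 at every age by less than 1.5 fold. At 2 months the WT libraries lay between 12.22 and 12.39 and the rTg4510 libraries between 12.52 and 12.77. At 4 months the ranges were 12.32 to 12.50 and 12.80 to 12.93, at 6 months 12.41 to 12.57 and 12.86 to 13.07, and at 8 months 12.19 to 12.36 and 12.61 to 12.78. The groups did not overlap at any age, as for 11%, 36.6%, 32.8% and 36.7% of all genes. The differences were 0.31, 0.43, 0.5 and 0.43, with an FDR of 0.00286, 0.000107, 1.91e-06 and 8.93e-05, and 6.03%, 23.2%, 34.1% and 25.7% of all genes passed that FDR with no fold minimum. The direction depends on the scaling: under quantile normalization the *Cd81* difference was 0.05 at 2 months and -0.16, -0.19 and -0.17 at 4, 6 and 8 months, with an FDR of 0.0121 at 6 months.

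**Figure D2:**
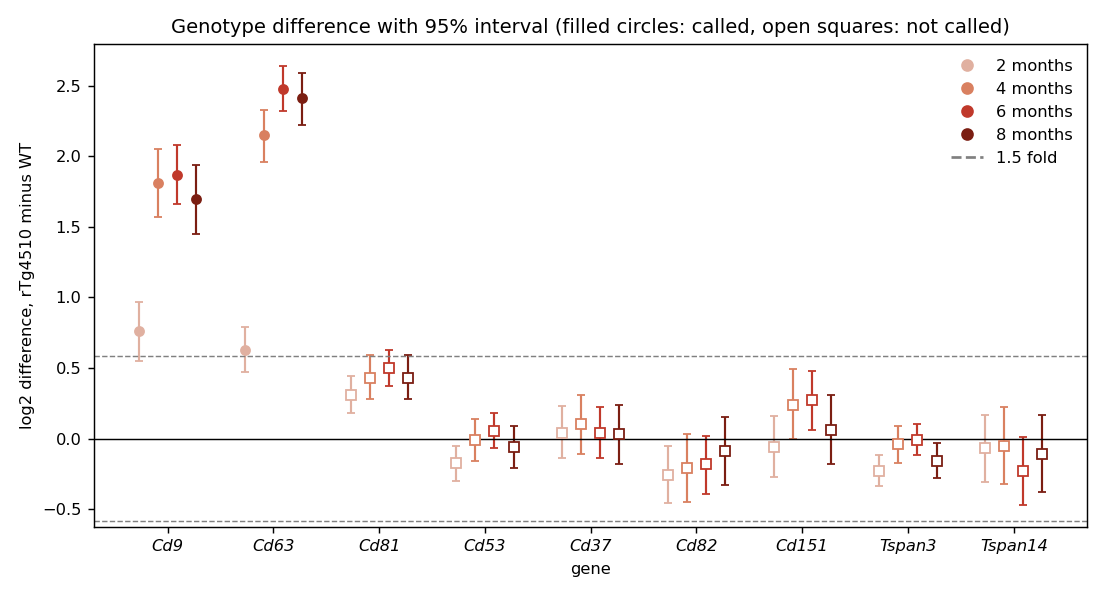
Log2 difference of rTg4510 minus WT (y axis) for each of the 9 members (x axis) at 2, 4, 6 and 8 months (light to dark), with 95% intervals from the model across all 28 libraries, filled circles for called and open squares for not called, and dashed lines at 1.5 fold. Only *Cd9* and *Cd63* lie past the dashed line, and of the 28 intervals that were not called the 25 other than those of *Cd81* at 4, 6 and 8 months lie inside 1.5 fold.

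The leukocyte tetraspanins *Cd37* and *Cd53* were level. *Cd37* lay between 9.03 and 9.50 in the WT libraries and between 9.09 and 9.64 in the rTg4510 libraries, with differences of 0.04, 0.1, 0.04 and 0.03 at the 4 ages. Its direction turned under quantile normalization and with single libraries left out, and all 4 of its 95% intervals stayed between -0.18 and 0.31. *Cd53* lay between 10.73 and 11.02 in WT and between 10.63 and 11.10 in rTg4510, with differences of -0.17, -0.01, 0.05 and -0.06 and an FDR of 0.114 or above. Under quantile normalization the *Cd53* differences were -0.35, -0.38, -0.39 and -0.46, under 1.5 fold but with an FDR of 0.0019, 0.000577, 5.76e-05 and 6.43e-05, so for this gene passing the FDR depended on the scaling. Neither gene was called under any setting tried.

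The adhesion members *Cd82* and *Cd151* had small differences. *Cd82* read 6.66, 6.60, 6.60 and 6.40 in WT and 6.29, 6.28, 6.34 and 6.32 in rTg4510 at 2 months. The rTg4510 libraries were all below WT there, but the difference of -0.26 ± 0.0986 (SE) had an FDR of 0.157. Groups did not overlap for 11% of all genes at that age. At later ages the *Cd82* differences were -0.21, -0.18 and -0.09. *Cd151* read 6.42, 6.41, 6.41 and 6.63 in WT and 6.54, 6.87, 6.82 and 6.71 in rTg4510 at 6 months. These groups overlapped, and the difference of 0.27 ± 0.102 had an FDR of 0.0478, which became 0.0995 with the replicate number as a block. At the other ages *Cd151* differed by -0.06, 0.24 and 0.06.

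*Tspan3* and *Tspan14*, which are broadly expressed, were not called. *Tspan3* read 7.23, 7.39, 7.38 and 7.18 in WT and 7.02, 7.08, 7.11 and 7.06 in rTg4510 at 2 months. All 4 rTg4510 libraries were lower, by 0.23 ± 0.0536 (SE) on the log2 scale with an FDR of 0.00946, which is 1.17 fold. At 2 months groups did not overlap for 11% of all genes, and 6.03% passed that FDR with no fold minimum. At 4 and 6 months the *Tspan3* groups overlapped, with differences of -0.04 and -0.01. At 8 months the rTg4510 libraries read 6.79, 6.79 and 6.79 and the WT libraries 6.83, 6.99 and 7.01, and the difference of -0.16 had an FDR of 0.0727, which became 0.0337 with the replicate number as a block. *Tspan14*, the ADAM10 partner, overlapped at every age, with differences of -0.07, -0.05, -0.23 and -0.11 and the widest rTg4510 spread of the members at 6 months, from 6.74 to 7.42.

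The genotype effect itself was then compared between ages. From 2 to 4 months the effect grew by 1.05 ± 0.152 (SE) for *Cd9* (FDR 0.000161) and by 1.52 ± 0.117 for *Cd63* (FDR 5.52e-08). These were the 2 members called of 9, where 4.66% of all genes were called. From 4 to 6 months 0 members were called by limma, where 0.156% of all genes were, and 1 member had an unadjusted p under 0.05, *Cd63*, whose effect differed by 0.34 with an FDR of 0.373. From 6 to 8 months 0 were called and 0 had an unadjusted p under 0.05, and 0% of all genes were called. At 8 against 2 months the effect was larger by 0.94 for *Cd9* (FDR 0.000364) and by 1.78 for *Cd63* (FDR 5.55e-09), again the 2 members called, where 6.7% of all genes were. The intervals of the *Cd81* interaction at 4 against 2 months ran from -0.08 to 0.32.

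Within genotypes the age steps of *Cd9* and *Cd63* were on the rTg4510 side. From 2 to 4 months rTg4510 rose by 1.15 ± 0.108 (SE) for *Cd9* (FDR 2.35e-07) and 1.59 ± 0.0826 for *Cd63* (FDR 5.54e-11), the 2 members called, where 6.39% of all genes were called. Over the same interval WT differed by 0.1 and 0.07, and 0 of 9 members were called in WT, where 0.0484% of all genes were and 1 member, *Tspan3*, had an unadjusted p under 0.05. From 4 to 6 months *Cd63* differed by 0.31 in rTg4510 (FDR 0.0601), with 0 members called where 0.818% of all genes were. From 6 to 8 months *Cd9* differed by -0.35 (FDR 0.158), *Cd53* by -0.26 (FDR 0.0845) and *Cd81* by -0.26 (FDR 0.0996) in rTg4510. There 0 members were called, where 0.00538% of all genes were. Unadjusted p-values under 0.05 numbered 2 and 6 in these rTg4510 comparisons. The median difference of the 9 members from 6 to 8 months was -0.22 in rTg4510 and -0.18 in WT, against -0.041 and -0.051 over all genes. In WT, 0 members were called from 4 to 6 months (0.00538% of all genes), from 6 to 8 months (0%) or at 8 against 2 months (1.27%), with 0, 4 and 1 unadjusted p under 0.05. A moderated variance called the same numbers in all of these. At 8 against 2 months *Cd9* and *Cd63* were higher in rTg4510 by 0.9 and 1.75 (FDR 3.06e-06 and 9.22e-12), where 10.5% of all genes were called. *Tspan3* was lower at 8 than at 2 months in both genotypes, by -0.35 in WT (FDR 0.0022) and -0.28 in rTg4510 (FDR 0.00129), both under 1.5 fold.

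Group membership accounted for 99.3% of the variance of *Cd63* over the 28 libraries, 98% of *Cd9* and 90.9% of *Cd81*, against a median of 48% over all genes. For *Tspan3* the share was 82.3%, for *Cd53* 63.2%, for *Cd82* 51.4%, for *Cd151* 49.4%, for *Cd37* 41.3% and for *Tspan14* 40.7%. Across the 28 libraries, which share genotype and age, *Cd9* and *Cd63* correlated at r = 0.98 and *Cd9* and *Cd81* at r = 0.94. After the 8 group means were removed, the correlations were 0.7 and 0.69, and *Cd81* correlated with *Cd37* and with *Cd53* at 0.79 each.

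The relation between members was also read within each library, a comparison chosen after the values were seen. The log2 signal of *Cd63* minus that of *Cd9* averaged -2.99, -3.02, -3.09 and -2.98 in WT at the 4 ages. In rTg4510 it averaged -3.12, -2.69, -2.48 and -2.27. The genotypes differed by -0.13 at 2 months (exact permutation p = 0.114, two-sided) and by 0.61 at 6 months (exact permutation p = 0.0286), where 4 against 4 libraries allow no smaller p than 0.0286. At 4 and 8 months they differed by 0.33 and 0.71 without overlap, at the smallest exact permutation p that 3 against 3 allow, 0.1. *Cd9* minus *Cd81* differed by 0.44, 1.38, 1.37 and 1.26, without overlap at any age. Its exact permutation p was 0.0286 at 2 and 6 months and 0.1 at 4 and 8 months, the smallest that each design allows. Over these 8 comparisons the smallest Benjamini-Hochberg adjusted permutation p was 0.0763. Given the smallest p that each design allows, none could have come under 0.05 after correction, so the correction decides nothing here. A difference within a library does not depend on its scale factor. The signals listed under *Cd63-ps* and *Cd9-ps* were not part of these differences.

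**Figure D3:**
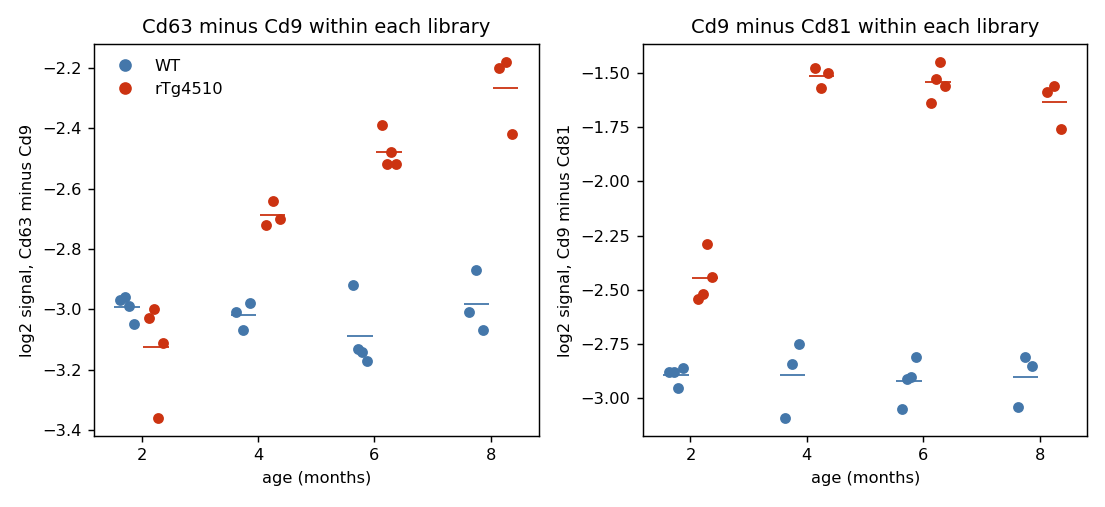
Difference of 2 log2 signals within each library (y axis; left *Cd63* minus *Cd9*, right *Cd9* minus *Cd81*) against age in months (x axis), 1 point per library with the group mean as a line, WT in blue and rTg4510 in red. WT means stay between -3.09 and -2.98 on the left, while the rTg4510 mean goes from -3.12 at 2 months to -2.27 at 8 months.

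Genes whose log2 signal followed each member most closely over the 28 libraries were listed by Pearson's r among the 9293 genes above the median signal, as a description. For *Cd9* they were *Ank*, a gene of pyrophosphate export (r = 0.992, 0.86 after removal of group means), and the gene models *Gm14760* and *Gm12671* (0.987 each). For *Cd63*, beside its copy, they were the hypoxia factor *Hif1a* and carboxypeptidase D, *Cpd* (both r = 0.991, 0.42 and 0.49 after removal of group means). For *Cd81* they were *Rhoa* (0.958), the cathepsin *Ctss* (0.956) and *Gatm* (0.949). The r-values of the nearest genes were lower for the steadier members. *Cd53* had *Rnf13* (0.888), *Tmem59* (0.858) and *Sppl2a* (0.803), and *Cd37* had *Laptm5* (0.807), *Surf4* (0.785) and *Tmed10* (0.769). *Tspan3* had *Csf1r* (0.815), *Cxxc5* (0.812) and *Twf2* (0.81). *Cd151* had *Cops7a* (0.79), *Psenen-ps* (0.785) and *Selenof* (0.776), *Cd82* had *9930111J21Rik2* (0.747), *Zfp759* (0.711) and *Tpst2* (0.709), and *Tspan14* had *P2ry6* (0.743), *Scamp5* (0.701) and *Scarb2* (0.7).

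Calls among the rest of the family went in both directions. Of 22 further tetraspanins, 20 were in the table, and *Tspan10* and *Tspan11* were not. At 2, 4, 6 and 8 months 0, 1, 2 and 0 were called up and 2, 3, 3 and 2 called down, so 10%, 20%, 25% and 10% were called, against 1.98%, 13.8%, 19.8% and 15.9% of all genes. Over all genes 0.403%, 4.33%, 8.54% and 5.37% were called down. Their median difference was 0.09, -0.35, -0.45 and -0.18. The tetraspanin with the largest fall was *Upk1b*, a uroplakin of the bladder lining, on chromosome 16. Its WT libraries lay between 4.90 and 5.27 at 2 months and between 5.54 and 5.97 at 8 months, while its rTg4510 libraries lay between 3.81 and 4.54 and between 2.31 and 2.66. The differences of *Upk1b* were -0.93, -2.02, -3.08 and -3.32, with an FDR of 0.000834, 5.16e-08, 6.58e-12 and 4.29e-11. At 8 months its rTg4510 libraries were close to the lowest values of a library, 1.23 to 1.92, so the size of the last difference depends on how such low signals were set. With these libraries placed at the upper limit taken as near the lowest value, the fall would still be 2.69 on the log2 scale, or 6.44 fold. The call of *Upk1b* at 2 months was lost with only the groups compared and with all 32 libraries.

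*Tspan18*, a partner of store-operated calcium channels, was lower by -1.19, -1.43 and -1.47 at 4, 6 and 8 months (FDR 1.03e-06, 4.77e-09 and 4.88e-08). Its difference at 2 months was -0.4 with an FDR of 0.0524. *Tspan18* and *Cd82* are neighbours on chromosome 2, 84.6 kb apart, and *Cd82* was not called at any age. *Tspan9*, a platelet tetraspanin, was lower by -0.77, -0.71 and -0.93 at 2, 4 and 6 months (FDR 0.000503, 0.000883 and 4.6e-06), and at 8 months it differed by -0.46, short of 1.5 fold. With all 32 libraries *Tspan9* was not called at any age, and its call at 4 months was also lost with only the groups compared and without rTg4510 replicate 2 of that age.

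Of the group that controls ADAM10, *Tspan5* was higher by 1.09 at 4 months and 0.99 at 6 months (FDR 0.00112 and 0.000479), with 0.38 at 2 months and 0.61 at 8 months not called, and *Tspan17* was higher by 1.72 at 6 months (FDR 3.68e-05). The WT libraries of *Tspan17* lay between 2.23 and 2.67 at 6 months, close to the lowest values. *Tspan14*, *Tspan15* and *Tspan33*, of the same group, were not called at any age, and *Tspan10* was not in the table. At 6 months *Tspan15* differed by -1 ± 0.762 (SE), and *Tspan33* differed by 0.29 at 4 months and 0.35 at 6 months. *Cd81* and *Tspan32* lie 33.3 kb apart and *Cd151* and *Tspan4* 3.8 kb apart on chromosome 7, and neither *Tspan32* nor *Tspan4* was called at any age.

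**Figure D4:**
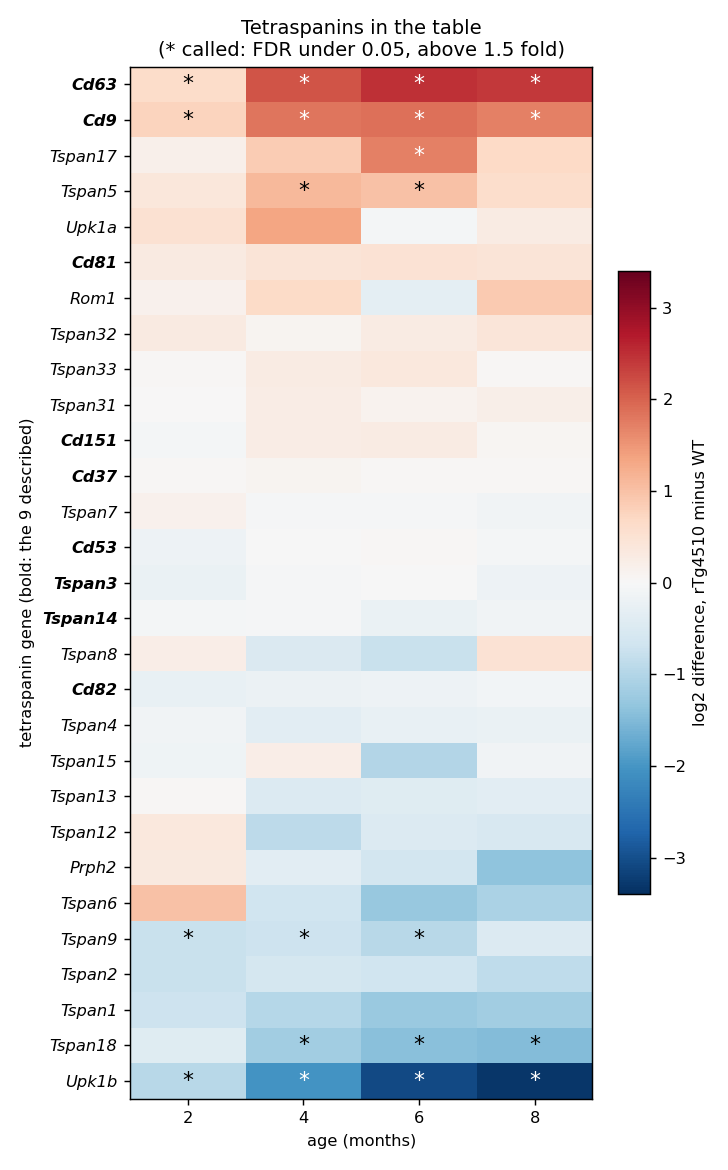
Log2 difference of rTg4510 minus WT (colour, red higher and blue lower) for the 29 tetraspanins in the table (rows, ordered by their mean difference, the 9 members in bold) at 2, 4, 6 and 8 months (columns), with called differences starred. *Cd63* and *Cd9* stand first and second in that order, and *Upk1b*, with -3.32 at 8 months, is at the bottom.

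Binding partners of tetraspanins were read from a list of 17, of which 16 were in the table and *Timp1* was not. At 2, 4, 6 and 8 months 0, 3, 4 and 4 were called up and 0, 1, 2 and 0 down, and 3 had an unadjusted p under 0.05 at 2 months. The share called was 0%, 25%, 37.5% and 25%, against 1.98%, 13.8%, 19.8% and 15.9% of all genes. *Ptgfrn*, which binds CD9 and CD81, was higher by 1.31, 1.64 and 1.48 at 4, 6 and 8 months (FDR 2.45e-06, 6.99e-09 and 3.63e-07). *Igsf8*, its relative with the same partners, was higher by 0.68, 0.79 and 0.7 (FDR 0.00112, 2.95e-05 and 0.000744). *Clec7a*, the β-glucan receptor dectin-1, which CD37 and CD63 are known to bind, was higher by 2.73, 3.14 and 3.16 (FDR 4.2e-08, 2.7e-10 and 4.71e-09).

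*Cd44*, the hyaluronan receptor, was higher by 1.22 and 1.38 at 6 and 8 months (FDR 9.81e-06 and 1.61e-05). *Hbegf*, the growth factor whose membrane form CD9 binds, was lower by -0.92 and -0.83 at 4 and 6 months (FDR 0.000503 and 0.000195). The other partner called down, *Cr2* at 6 months, had -1.55 (FDR 0.000872) and is named although it was called at 1 age only. *Adam10* and the integrin genes on the list were not called at any age.

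Of 13 genes for exosome formation, 11 were in the table, and *Rab27b* and *Sdc1* were not. At 2 and 4 months 0 were called, with 1 and 3 at an unadjusted p under 0.05, and at 6 and 8 months 1 was called up at each and 0 down. This is 9.09% of the list, where 19.8% and 15.9% of all genes were called at those ages. At 6 and 8 months 6 and 7 genes of the list had an unadjusted p under 0.05. With no fold minimum 3 passed the FDR at each of these ages, where 34.1% and 25.7% of all genes did. The called gene was *Sdcbp*, whose product syntenin links CD63 to vesicle budding, with differences of 0.84 and 0.83 (FDR 1.17e-08 and 1.84e-07) and 0.22 and 0.5 at 2 and 4 months. The ESCRT components on the list were not called.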

How the data were processed

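RNA had been reverse transcribed with the NuGEN Ovation RNA-Seq System V2 and sequenced as Kapa libraries. The values used are the log2 gene signals that the authors deposited: exon reads were summed, weakly covered exons left out, 1 signal per gene fitted over its exons with a robust linear model, and each library median normalized. The build per the labels is GRCm38, and the aligner and the handling of reads with several matches are not given in the sources used here. No read totals were in the table, so the depth behind a value is unknown, and the number of libraries limits the precision.

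Entrez IDs were matched to symbols with RefSeq for 95.9% of genes. Log2 signals of 28 libraries were fitted in limma 3.58.1 (R 4.3.3) as 8 group means with unmoderated variance (20 residual degrees of freedom), and contrasts of genotype, age and their interaction were tested two-sided, with Benjamini-Hochberg FDR over 18588 genes within a contrast. A gene was called when it passed both the FDR of 0.05 and a 1.5-fold minimum. The fit was tested on simulated data. Libraries are pools of separate animals. Same-numbered libraries of the 2 genotypes deviated together at 6 months (r of deviations from the group means 0.131 to 0.153) and 8 months (0.15 to 0.291). At 2 months every such pair was also positive (0.0649 to 0.167), while differently numbered libraries reached 0.0816. At 4 months not every pair was positive (-0.0999 to 0.124).

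The members and gene lists were chosen with earlier results of these data known. A gene of the microglia marker list is not reported here and was left out of its means and counts. All members were named, other tetraspanins if called at 1 age (at most 10), partner and exosome genes if called at 2 ages (at most 8 per list), and 3 genes per member by correlation. Alternatives were moderated variance, fits of the compared groups only, all 32 libraries, quantile normalization, scaling to the linear sum, genes above the 25th percentile of signal, no fold minimum, a replicate block, and leaving out each library. Promoters came from RefSeq (GRCm38.p6). Figures were drawn with matplotlib.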

Additional observations from a re-analysis of the deposited data

Results flagged for a closer look

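The genotype effect of *Cd9* and *Cd63* stands out because it differed between ages by the interaction test of limma. At 4 against 2 months the effect was larger by 1.05 for *Cd9* and 1.52 for *Cd63*, and at 8 against 2 months by 0.94 for *Cd9* and 1.78 for *Cd63*. The comparisons share the 2-month libraries, so they are not independent of each other.

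One library lay apart from its group. Replicate 4 of WT at 6 months had a *Cd151* signal of 6.63, while the other 3 lay between 6.41 and 6.42, a gap of 0.981 of the range of the group. It was the 1 such value among 36 groups of 4 libraries that were examined over the 9 members, where chance gives about 1 in 20. The groups of 3 libraries were not examined in this way.

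Each excluded library was also set beside the kept libraries of its group. The excluded rTg4510 library of 4 months read 7.99 for *Cd37*, where the kept ones lay between 9.16 and 9.5, and 7.92 for *Tspan14*, where they lay between 6.9 and 7.3. The excluded libraries of *Cd81* and *Cd53* lay below the kept ones in all 4 groups.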

How the results depend on the processing

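*Cd9* was called at each age under every alternative, and *Cd63* under every one except the linear-sum scaling at 2 months, which left 1 member called. Without a fold minimum 4 members passed at 2 and 6 months and 1 (*Tspan3*) in WT at 8 against 2 months. Leaving out single libraries kept 2 members called for the genotype at every age. With the replicate block 2 members stayed called at each age, *Cd9* differed by 0.76, 1.81, 1.87 and 1.69, and no call of the genotype differences or interactions changed. Of the other tetraspanins called, 1 remained in number at 2 months with only the groups compared, 0 with all 32 libraries and 1 among genes above the 25th percentile. That filter, under which fewer genes are tested, gave 2 at 4 and 6 months and 1 at 8 months. At 8 months all 32 libraries gave 4, quantile normalization 4 and no fold minimum 4. Signs turned for differences that were not called. *Cd81* became -0.16, -0.19 and -0.17 at 4, 6 and 8 months under quantile normalization, and *Cd53* -0.39 at 6 months. *Cd37* became -0.05, -0.09, -0.18 and -0.18 at the 4 ages under quantile normalization, -0.01 and 0 at 2 and 6 months under the linear sum, and -0.24 and 0 at 4 and 8 months with all 32 libraries. With all 32 libraries *Tspan3* became 0.03 and *Tspan14* 0.19 at 4 months, and *Cd53* was 0.01 there under the linear sum. With single libraries left out *Cd37* ran from -0.03 to 0.08, -0.02 to 0.07 and -0.03 to 0.11 at 2, 6 and 8 months, *Tspan14* from -0.11 to 0.01 and -0.15 to 0.05 at 2 and 4 months, *Tspan3* from -0.08 to 0 and -0.04 to 0.03 at 4 and 6 months, *Cd53* up to 0.04 at 4 months, and *Cd82* up to 0 and *Cd151* from -0.02 to 0.18 at 8 months. The cause of these turns was not tested. At 2 months 79.6% of all called genes were up, against 68.3% under quantile normalization and 67.7% under the linear sum.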
